A study of Medicago truncatula with 14 samples.

Results

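The data described here are the genome positions at which the LSH1 protein was recovered with chromatin from hairy roots of the legume Medicago truncatula. LSH1 belongs to the ALOG family, which is named after the Arabidopsis LSH1 and rice G1 proteins. ALOG proteins are small plant-specific nuclear proteins with a conserved DNA-binding domain, and several of them set the boundaries and identity of lateral organs. In legumes LSH1 is known for its part in giving the root nodule, the organ that houses nitrogen-fixing bacteria, its own identity.

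The experiment was chromatin immunoprecipitation followed by sequencing, and its stated purpose was to search for binding sites. Members were chosen by label alone, as every peak list that the submitters made from LSH1 libraries. These were 4 of the 7 lists of the series and drew on 8 of its 14 samples, 4 LSH1 immunoprecipitations and 4 LSH1 controls with replicate numbers 1 to 4. All 8 samples carry the labels ecotype jemalong, cultivar Jester and LSH1 overexpression. The protocol gives the construct as pLjUBI:GFP-LSH1, in which a Lotus japonicus ubiquitin promoter drives a fusion of green fluorescent protein and LSH1, so binding was read from overexpressed protein in transiently transformed roots. Roots were 3 weeks old, were grown with 0.5 mM ammonium nitrate under non-symbiotic conditions, and gave 2000 to 3000 mg of tissue per sample. The protocol also names pLjUBI:NLS-GPF (so spelt) as a control construct, while the labels give the control libraries the LSH1 genotype, and the labels do not settle which material the controls came from. Whether the replicates were grown separately is not stated, so the spread between lists may be technical.

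A peak is given by its sequence, its first and last position and a running number, with no height, fold or significance value. The lists for replicates 1 to 4 held 25127, 21902, 18750 and 20787 peaks, of which 25113, 21886, 18739 and 20775 lay on the 8 chromosomes. Read numbers were not analysed here and the depth behind each list is unknown, so list length is not read as an amount of binding. The running number is used as a place, 100 times the number divided by the list length, so that a low place means early in the list. What the submitters ordered the peaks by is not named. Wide peaks stood early in every list, with a Spearman rho across peaks between running number and width of -0.412, -0.487, -0.324 and -0.328 in replicates 1 to 4.

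The first question was how far the LSH1 lists found the same places. The very first peaks of each list were almost all found in every list, and agreement declined down the lists. On average 38.2% ± 1.82 of the peaks of a list overlapped a peak of another list by at least 1 bp (SD, n = 4 lists). The averages over the other lists were 35.7%, 39.7%, 39.5% and 38.1% for replicates 1 to 4. Replicates 1 and 2 shared most, with an overlap for 42.2% of the peaks of replicate 1 and 47.8% of those of replicate 2. Replicates 3 and 4 shared least, with 35.5% of the peaks of replicate 3 and 31.7% of those of replicate 4. The same pairs were the extremes when bases were compared, where the shared bases were 28.5% of all bases covered by replicates 1 and 2 and 19.4% for replicates 3 and 4. Where peaks overlapped, their places in the lists of a pair correlated with a Spearman rho of 0.542 to 0.600 across regions, a description only.

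Merging overlapping peaks of the 4 lists gave 53939 regions on the chromosomes, which covered 22.5 Mb or 5.28% of 426 Mb. Of these, 37239 regions held peaks of 1 list, 8106 of 2 lists, 3974 of 3 lists and 4620 of all 4 lists. Regions in 4 lists thus outnumbered those in 3 lists, although they made up only 8.57% of regions. Among regions of 2 lists, 31.0% joined replicates 1 and 2 and 10.6% joined replicates 3 and 4. Among regions of 3 lists, replicate 3 was the missing list in 42.8%, replicate 4 in 32.4%, replicate 2 in 13.4% and replicate 1 in 11.4%. Replicate 3 is also the shortest list, and the part of list length in these counts was not tested.

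**Figure D1:**
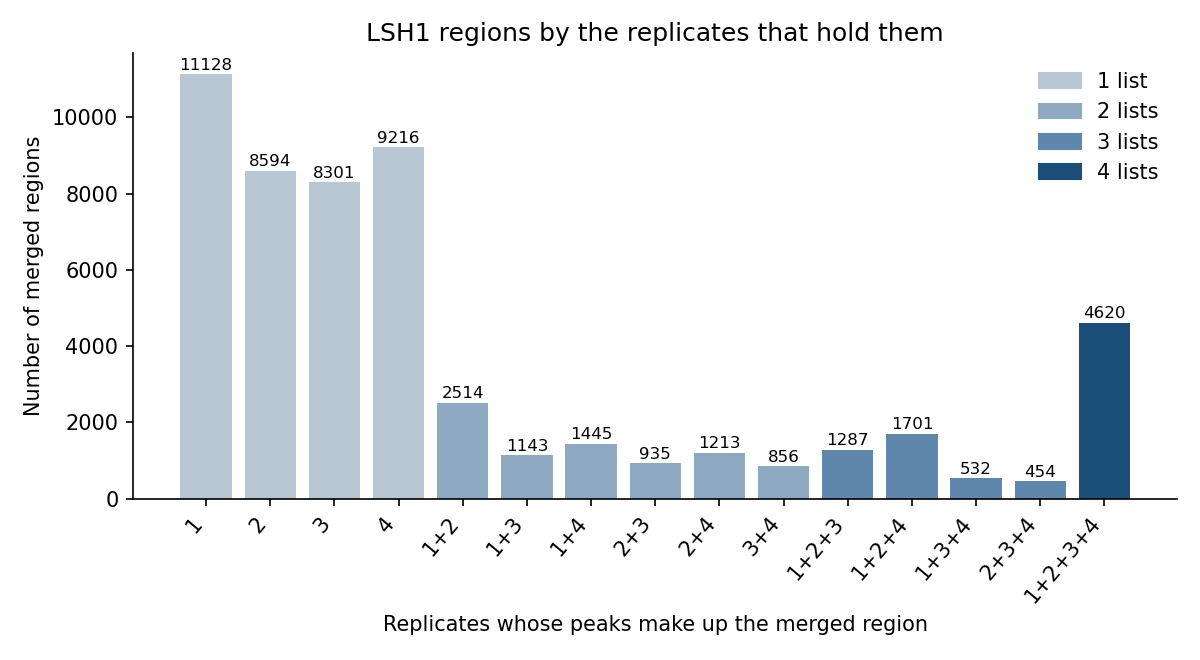
Number of merged LSH1 regions for each combination of replicates whose peaks make up the region, with darker bars for more lists. Regions of a single list run from 8301 to 11128 per replicate, regions of all 4 lists number 4620, and the 1+2 and 1+2+4 combinations are the highest of their kind.

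Seen from within a list, the split was similar in all replicates. Peaks in regions of 1, 2, 3 and 4 lists made up 43.1% ± 2.53, 18.7% ± 2.73, 14.2% ± 1.65 and 24.1% ± 2.98 of a list (SD, n = 4). Replicates 1, 3 and 4 had 44.3%, 44.3% and 44.4% of their peaks in regions that no other list held, and replicate 2 had 39.3%. The share of peaks in regions of all 4 lists was 20.6%, 23.0%, 27.6% and 25.2% in replicates 1 to 4, lowest in the longest list and highest in the shortest.

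Agreement was almost complete at the top of the lists. Of the first 100 peaks of each list on the chromosomes, 100%, 100%, 99.0% and 100% lay in a region of all 4 lists. This share was 99.5% ± 0.201 for the first 500 peaks, 96.5% ± 0.719 for the first 1000, 87.2% ± 1.97 for the first 2000, 61.2% ± 2.38 for the first 5000 and 40.8% ± 0.573 for the first 10000 (SD, n = 4). None of the first 500 peaks was without a partner in another list, against 11.8% ± 5.68 of the first 5000. The order itself was less alike than the membership, since 82.3% of the first 100 peaks overlapped a peak among the first 100 of another list, and 51.1% did so among the first 5000.

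Cut into 5 equal groups by running number, every list showed the same decline. From group 1, with the first peaks, to group 5, 90.8%, 63.6%, 50.1%, 42.7% and 37.5% of peaks were also in another list. The shares in all 4 lists were 66.1%, 23.4%, 13.8%, 9.68% and 7.61%. Group 1 exceeded group 5 by 58.3, 57.3, 49.6 and 48.0 percentage points in replicates 1 to 4 for overlap with another list, a mean of 53.3 ± 5.27 (SD, n = 4). An exact two-sided sign-flip permutation test over the 4 lists gave p = 0.125, the smallest that 4 lists allow, so this design cannot pass 0.05. The share of each list also rests on the other lists, so the 4 differences are not independent.

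**Figure D2:**
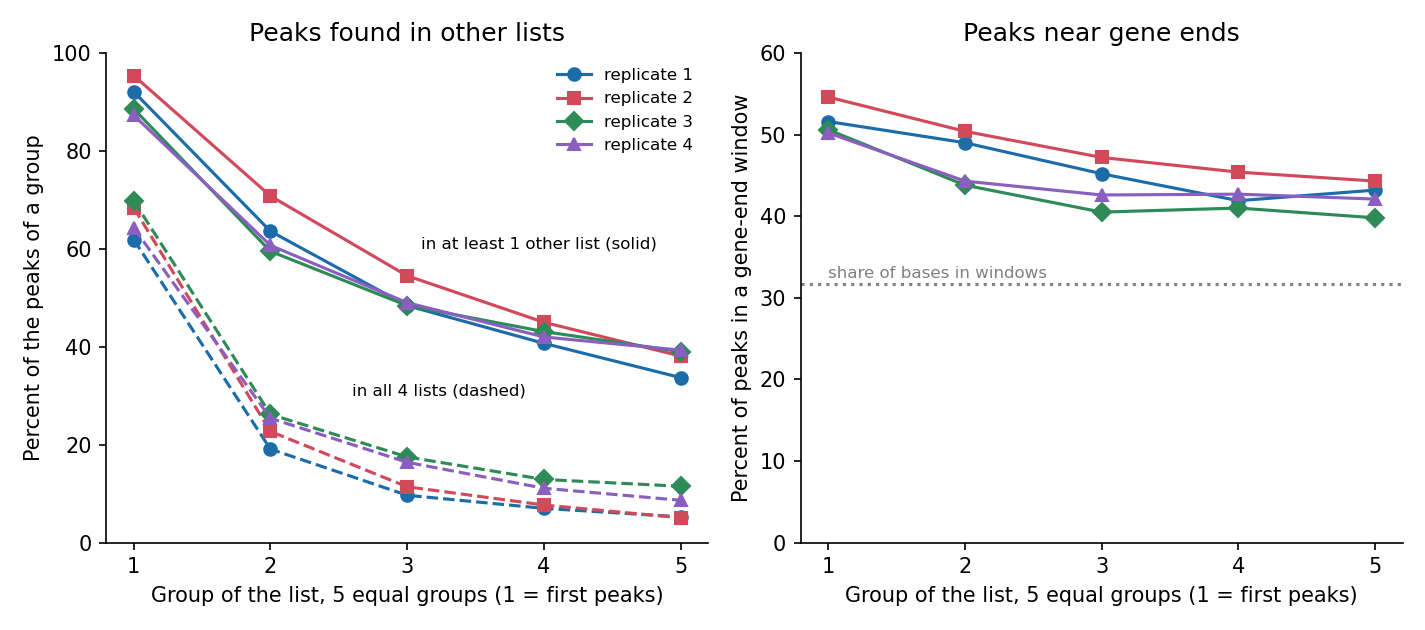
Left, percent of the peaks in each of 5 equal groups of a list by running number (1 holds the first peaks) that lie in at least 1 other list (solid) or in all 4 lists (dashed), with a colour and marker per replicate. Right, percent of peaks in a gene-end window, with the share of chromosome bases in such windows as a dotted line at 31.7%; all 4 replicates are higher in group 1 than in group 5 in each measure and stay above the line.

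Place also varied within the regions that all 4 lists held. The range of place over the 4 lists had a median of 28.0 points and exceeded 50 points in 27.5% of these regions. A total of 1498 regions, 32.4% of the 4620, stood in group 1 of every list. Sorted by mean place into 4 equal groups of 1155 regions, the best-placed group ran to a place of 8.33% and the last group began at 35.8%.

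LSH1 peaks were short stretches of the genome. Median widths were 320, 344, 292 and 311 bp in replicates 1 to 4, with the narrowest peak of a list at 185 to 200 bp and the widest at 3672 to 4334 bp. Wider peaks were those that more lists shared, although a wider peak by itself has more bases on which to meet another list. Peaks in regions of 1, 2, 3 and 4 lists had median widths of 260 ± 9.87, 304 ± 19.0, 367 ± 45.5 and 542 ± 93.6 bp within their own list (SD of the list medians, n = 4). In regions of all 4 lists these medians were 587, 650, 443 and 489 bp for replicates 1 to 4, against 261, 271, 247 and 261 bp in regions of 1 list, with no overlap. Merged regions were wider still, with medians of 260, 443, 629 and 948 bp for 1 to 4 lists, but joining more peaks by itself makes a region longer. Regions over 2000 bp numbered 0, 0, 7 and 258 for 1 to 4 lists.

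The lists gave a shared peak similar but not equal starts, ends and midpoints. In 3413 of the 4620 regions of all 4 lists, 73.9%, each list had exactly 1 peak. There the 4 midpoints spanned a median of 180 bp (quartiles 115 and 275 bp), and the starts and ends spanned medians of 234 and 239 bp. A midpoint is the mean of a start and an end, so its smaller span does not show that position was more exact than edges. Midpoints fell within 100 bp of each other in 20.0% and within 200 bp in 56.3%. A stretch covered by all 4 peaks was present in 93.7% of these regions. It had a median length of 284 bp, and in the median region it was 38.9% of the stretch covered by any of the 4 peaks, whose median was 811 bp. The other 1207 regions had more than 1 peak in some list, up to 12 peaks in a region.

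Along the chromosomes, LSH1 regions were spaced unevenly. The median gap between neighbouring peaks was 6238, 7470, 9204 and 6747 bp in replicates 1 to 4. Between merged regions it was 2655 bp for all of them, 8382 bp for regions of at least 2 lists, 17942 bp for at least 3 lists and 37621 bp for all 4 lists. The mean gap for all 4 lists was 90698 bp, far above the median, because short gaps and very long gaps were both common. Of these gaps 17.3% were at most 5000 bp and 24.6% were over 100000 bp. Linking regions of all 4 lists that lay at most 5000 bp apart gave 624 groups of at least 2 regions, which held 1422 regions or 30.8%. The longest group had 6 regions over 19398 bp on chromosome 1, at positions 46498216 to 46517613. The longest stretch without a region of all 4 lists was 3565036 bp on chromosome 7, from 13623056 to 17188091, and it held 74 coding genes and 31 regions of fewer lists.

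Chromosome 1 carried LSH1 peaks most densely and chromosome 6 least densely. Chromosome 1 had 71.8, 62.2, 55.1 and 62.8 peaks per Mb in replicates 1 to 4, a mean of 63.0 ± 6.85 (SD, n = 4). Chromosome 6 had 27.8, 25.6, 20.8 and 17.7 peaks per Mb, a mean of 23.0 ± 4.57. The other chromosomes had means of 48.2 to 56.2 peaks per Mb, so that chromosome 6 lay below every other chromosome in each list. Chromosome 6 is also the poorest in coding genes, with 57.3 per Mb against 70.1 to 80.1 on the others. Counted per 100 coding genes it still had only 40.1 ± 7.97 peaks, against means of 65.6 to 79.2 on the other chromosomes. Regions of all 4 lists behaved alike, with 7.58 per 100 coding genes on chromosome 6 against 13.9 to 17.8 elsewhere. Mapping rates by chromosome were not analysed here.

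**Figure D3:**
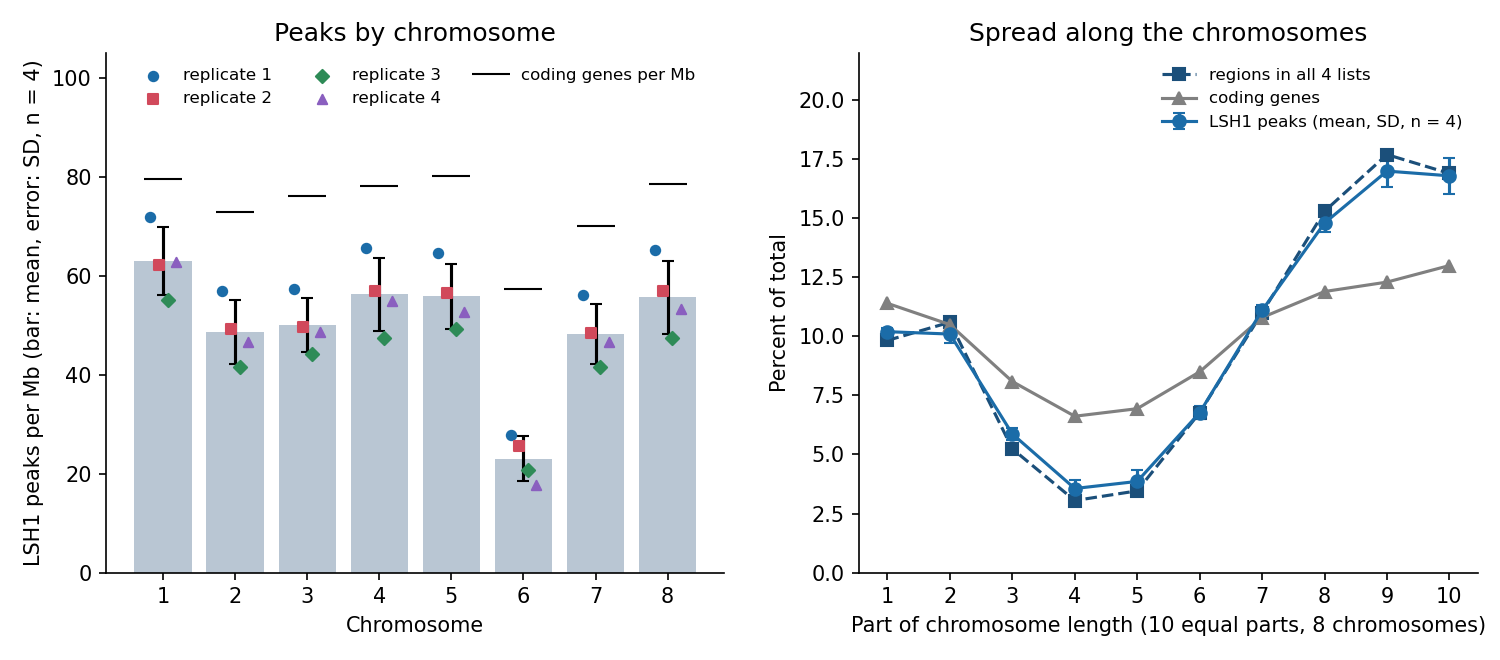
Left, LSH1 peaks per Mb on each chromosome (bars, mean; error bars, SD of 4 lists; points, replicates) with coding genes per Mb as black dashes; chromosome 6 is lowest in all 4 lists. Right, percent of LSH1 peaks (mean and SD of 4 lists), of regions in all 4 lists and of coding genes in each of 10 equal parts of chromosome length; the share of peaks is below that of genes in parts 1 to 6 and above it in parts 7 to 10.

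Within chromosomes, cut into 10 equal parts and added over the 8, LSH1 peaks were scarcest in part 4. This part held 3.56% ± 0.378 of the peaks of a list (SD, n = 4) and 6.62% of coding genes. Parts 9 and 10 held 17.0% ± 0.660 and 16.8% ± 0.771 of peaks, with 12.3% and 13.0% of coding genes. Between these parts peaks thus differed more than genes, and regions of all 4 lists did the same, with 3.05% in part 4 and 17.7% in part 9. Peaks did not follow genes throughout. Part 1 held 11.4% of coding genes and 10.2% of peaks, but part 7 held 10.8% of coding genes and 11.1% of peaks. Over 420 bins of 1 Mb, peak numbers of any pair of lists correlated with Pearson's r of 0.966 to 0.977. With the number of coding genes r was 0.806 to 0.819 for the 4 lists and 0.727 for regions of all 4 lists. These are descriptions across bins that share the gene map and base composition. The richest bin, positions 48000001 to 49000000 of chromosome 1, held 41 regions of all 4 lists, 106 coding genes and 142, 125, 115 and 139 peaks of replicates 1 to 4. In 27 bins there was no region of all 4 lists, and these held a mean of 33.2 coding genes against 74.2 over all bins.

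The next question was where LSH1 peaks lay with respect to genes. Peak midpoints were dense around the ends of coding genes and sparse far from genes and deep inside long genes. The first 500 bp inside a gene end held 1.95, 2.12, 1.77 and 1.92 times as many midpoints as their share of bases in replicates 1 to 4, a mean of 1.94 ± 0.147 (SD, n = 4). For the first 250 bp outside a gene end the ratios were 1.86, 2.26, 1.52 and 1.57, a mean of 1.80 ± 0.341. The ratio then declined outwards to 1.31 at 251 to 500 bp, 1.24 at 501 to 1000 bp, 1.19 at 1001 to 2000 bp, 1.02 at 2001 to 5000 bp and 0.800 at 5001 to 10000 bp. Beyond 10000 bp it was 0.278 ± 0.0275, and deeper than 2000 bp inside a gene it was 0.701 ± 0.0403. The gene table gives no strand, so starts and ends of genes could not be separated, and it gives no exons or untranslated regions.

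The closeness to gene ends was greater for regions that more lists held. In the first 250 bp outside a gene the ratio to bases was 1.24, 1.91, 2.48 and 2.51 for regions of 1, 2, 3 and 4 lists. In the first 500 bp inside it was 1.66, 2.04, 2.21 and 2.23. Deep inside genes the order was the opposite, with 0.895, 0.613, 0.564 and 0.476 beyond 2000 bp from an end. The share of regions far from genes hardly moved, since 33.5%, 32.8%, 32.5% and 32.3% lay over 2000 bp outside coding genes, where 46.8% of bases lie. Regions of all 4 lists and of 1 list thus differed in their shares at gene ends and in gene interiors. Deeper than 500 bp inside a gene lay 17.4% of regions of all 4 lists, against 28.4% of regions of 1 list.

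**Figure D4:**
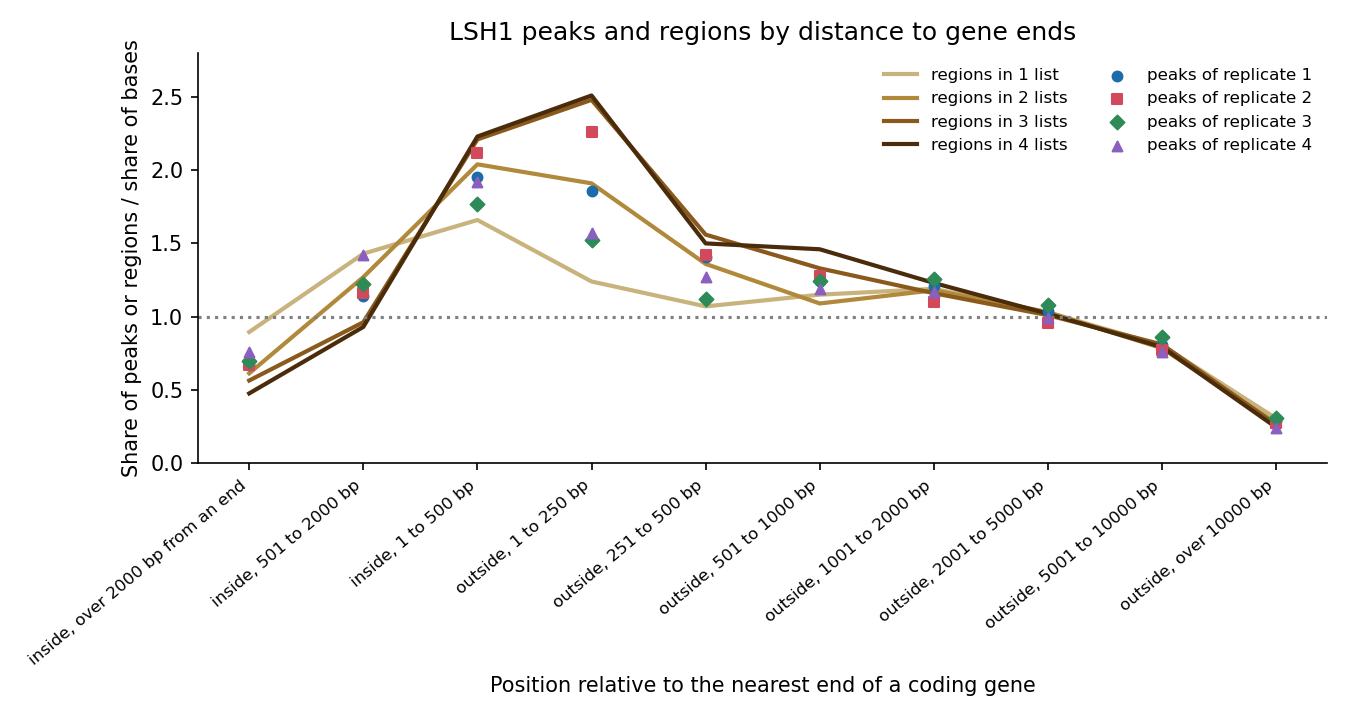
Share of LSH1 peak midpoints (points, replicates 1 to 4) or merged regions (lines, by number of lists) in each distance class divided by the share of chromosome bases in that class; the dotted line at 1 is the base share. Regions of 3 and 4 lists peak at 2.48 and 2.51 in the 250 bp outside gene ends, and all sets fall under 1 beyond 5000 bp.

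A window from 2000 bp outside to 500 bp inside each end of a coding gene, which takes in 31.7% of bases, shows the same within each list. It held 51.7%, 52.2%, 51.5% and 51.5% of the peaks in regions of all 4 lists for replicates 1 to 4. For peaks in regions of 1 list it held 41.6%, 44.5%, 37.6% and 38.4%, lower in every replicate. By place, the share was 51.7%, 46.9%, 43.8%, 42.7% and 42.4% from group 1 to group 5 of a list. Group 1 exceeded group 5 by 8.40, 10.2, 10.8 and 8.04 percentage points, a mean of 9.36 ± 1.34, with p = 0.125 by the exact two-sided sign-flip permutation test over 4 lists. With the whole gene and 3000 bp to each side as the window this difference was -0.0562 ± 1.85 points (SD, n = 4; exact permutation p = 0.875), and no difference between the groups was detectable. Among regions of all 4 lists place made little difference, since the window held 53.1%, 52.6%, 52.6% and 49.4% of them from the best-placed to the last of the 4 groups of 1155 regions.

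Shares of genes close to an LSH1 region were also counted for the other kinds of gene. A region of at least 2 lists lay within 500 bp of 20.8% of coding genes, 9.37% of long noncoding RNA genes, 8.51% of pseudogenes and 10.2% of transfer RNA genes. For small nucleolar RNA genes the share was 2.27%, for small nuclear RNA genes 12.9% and for ribosomal RNA genes 0.0711%, 1 of 1407. Coding genes are the longest of these classes, with a median of 3203 bp against 73.0 bp for transfer RNA genes. No allowance was made for length, and the differences between classes were not tested.

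Of 31728 coding genes, 7481 or 23.6% had the midpoint of an LSH1 region of at least 2 lists in their gene-end window. Regions of all 4 lists reached 2561 coding genes, 8.07%. Of those genes 2342 had 1 such region, 211 had 2 and 8 had 3. The genes with 3 were LOC25480425, LOC25486189, LOC11409753, LOC11425571, LOC11416640, LOC120580582, LOC11422400 and LOC25500825, chosen after their values were seen. Genes with a region of all 4 lists had a median length of 3190 bp, against 3204 bp for the other coding genes. The mean gap to their neighbouring coding genes had a median of 6352 bp, against 6101 bp for the other genes. In 4 equal groups of genes by length, short to long, 7.36%, 8.87%, 8.83% and 7.22% of genes had such a region. By chromosome the share was lowest on chromosome 6 at 3.55% and lay between 7.34% and 9.79% on the others. Windows of neighbouring genes overlap, and 8.14% of the regions of all 4 lists lay in the windows of at least 2 genes.

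The 25 coding genes with the best-placed regions of all 4 lists in their gene-end windows are known here only by their identifiers. The gene table has no product for them. Their 23 regions had mean places of 0.0274% to 0.363%, and the largest running number among them in any list was 107. In 19 genes the region overlapped the gene, and in 6 it lay 345 to 1101 bp outside. The regions were wide, 1044 to 4504 bp with a median of 2045 bp. None of these genes lay on chromosome 6, 5 lay on each of chromosomes 3 and 7, and 1 lay on chromosome 1. Genes near ribosomal RNA genes had been left out of this choice. So had regions whose midpoint lay deeper than 500 bp inside a gene. Among the latter, a region of 4063 bp on chromosome 1 had running numbers 2, 2, 4 and 5.

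LOC112417027 on chromosome 8 came first among these 25 genes. Its region, at 40168196 to 40172271, had running numbers 4, 5, 7 and 7 in replicates 1 to 4, a mean place of 0.0274% ± 0.00984 (SD, n = 4). The region is 4076 bp wide, overlaps the 759 bp gene, and is 1 of 2 regions of all 4 lists in the window of this gene. LOC25500797, also on chromosome 8, followed with numbers 6, 7, 8 and 8 and the widest region of the 25 genes, 4504 bp at 10768349 to 10772852. At LOC25489462 on chromosome 3 the numbers were 9, 8, 10 and 12, for a region of 3816 bp at 37193181 to 37196996. No other gene of the 25 had a number under 20. Running numbers are consecutive, and regions outside this choice held those between. The step thus does not set these 3 genes apart.

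LOC25490247 on chromosome 3 had running numbers 23, 26, 21 and 20, for a region of 2969 bp that overlaps the gene. LOC25499388 on chromosome 7 had 26, 23, 24 and 22, for a region of 1648 bp that lies 446 bp outside the gene. Further down, the lists differed more. LOC25486467 on chromosome 2, last of the 25, had numbers 58, 52, 88 and 107, and LOC112421933 on chromosome 5 had 56, 53, 97 and 94. In both, replicates 1 and 2 placed the region earlier than replicates 3 and 4. LOC11422400 on chromosome 7 was the only one of the 25 with 3 regions of all 4 lists, and its best-placed region had numbers 64, 51, 44 and 41.

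**Figure D5:**
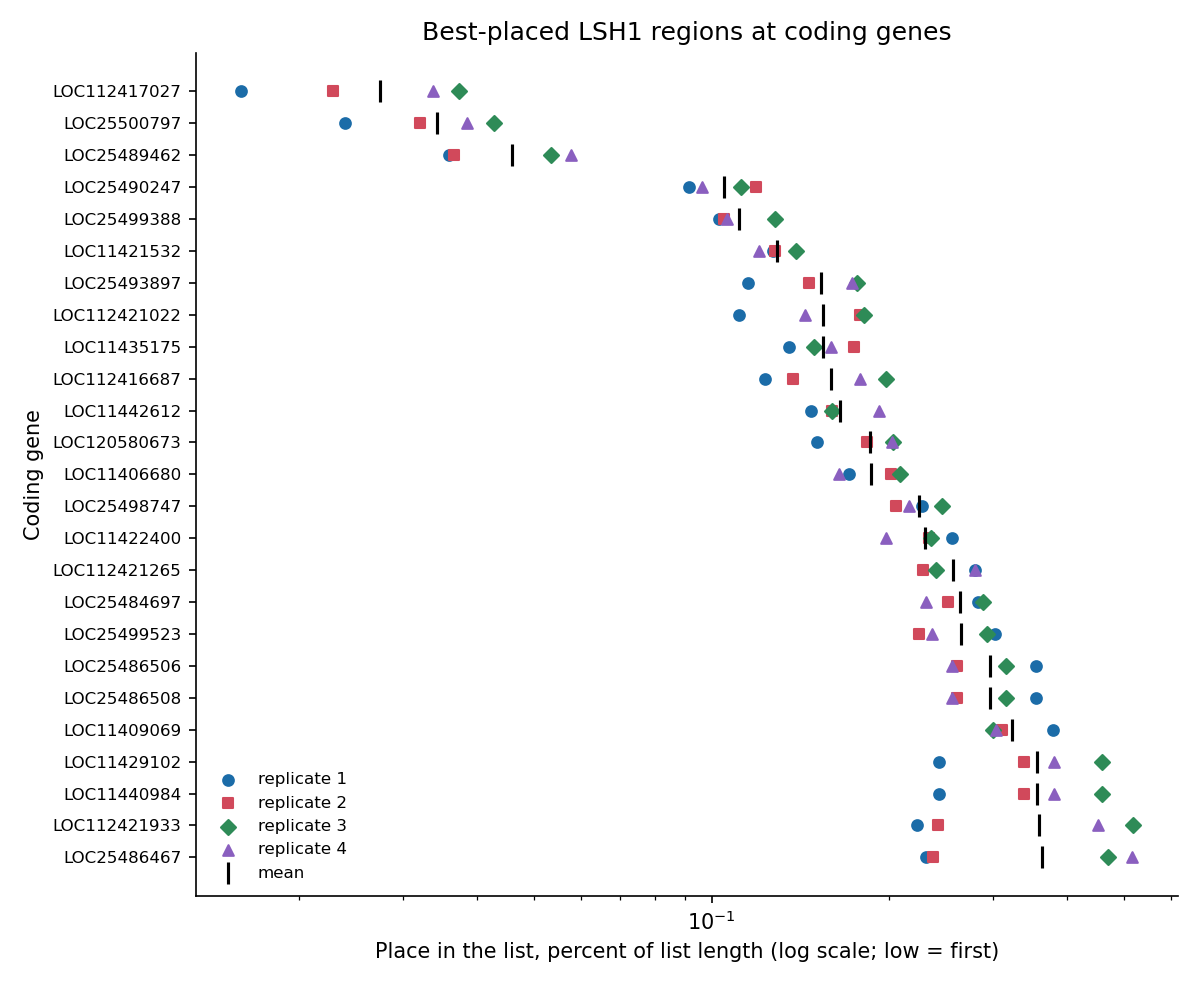
Place of the LSH1 region in each list (points, replicates 1 to 4, and black bars, mean), on a log axis in percent of list length. The genes are the 25 coding genes with the best mean place of a region in their gene-end window. The first 3 genes lie below 0.06% in every list, and the spread between replicates is wide for the last 4 genes.

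Like the regions of all 4 lists in general, not all of the best-placed regions lay at genes. Of the first 50 regions by mean place, 15 had their midpoint inside a coding gene and 18 lay over 2000 bp from any. The gene-end window held 21 of them. Over all 4620 regions of all 4 lists, 33.1% lay inside a coding gene and 32.3% over 2000 bp from any. The window held 51.9% of the 4620, and the differences from the first 50 were not tested. The widest of all regions, 6349 bp at 31051486 to 31057834 on chromosome 2, had running numbers 1, 1, 3 and 4 and lay 12583 bp from the nearest coding gene. The region with the best mean place, 544 bp at 23810198 to 23810741 on chromosome 5, had numbers 3, 3, 1 and 1 and lay within 5000 bp of a ribosomal RNA gene. The same holds for 8 of the first 50 regions but only for 10 of all 4620. All 8 lay in a single stretch of chromosome 5, between positions 23802290 and 23927248. Those 8 were narrow, with a median width of 327 bp against 2040 bp for the other 42. Ribosomal RNA genes are repeated many times in plant genomes, and the part of repeated sequence in these peaks was not tested.

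Genes with a name in the table allow a view of known pathways. A region was counted where its midpoint lay in the gene-end window. Of 227 symbiosis and root genes sought by name, 38 were found, and 13 of them (34.2%) had a region of at least 2 lists and 7 (18.4%) a region of all 4, beside 23.6% and 8.07% of all coding genes. For the 77 coding genes with any name the counts were 24 (31.2%) and 13 (16.9%). Named genes as a whole thus stood above all coding genes, and the difference was not tested. LSH1 itself was not found by name and is not analysed here. No meristem gene of 47 was found either.

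In symbiosis signalling 4 of 10 genes had a region of at least 2 lists and 3 of 10 a region of all 4. The shares were 23.6% and 8.07% over all coding genes and 31.2% and 16.9% over those with a name. NSP1, a GRAS-domain transcription factor needed for responses to rhizobial Nod factors, had places of 4.55%, 2.05%, 1.55% and 1.84% in replicates 1 to 4 for a region of 1318 bp on chromosome 8 that overlaps the gene. DELLA2, a member of the DELLA repressors of gibberellin responses, had 2 such regions. One lay 1064 bp outside the gene at places of 3.59%, 1.75%, 3.96% and 2.05%, and the other overlapped the gene at 12.5%, 35.7%, 8.17% and 8.50%. The outer one spans 37954830 to 37956660 and the inner one 37952578 to 37954670. Merging over 200 bp would join them, so the split rests on the 1 bp rule. NSP1 and the outer DELLA2 region were thus early in all lists. CCAMK (DMI3), the calcium- and calmodulin-dependent kinase that decodes symbiotic calcium signals, had a later region at 22.8%, 40.3%, 24.7% and 54.9%. IPD3, the partner protein of that kinase, had a region of 3 lists, missing in replicate 3, with places of 29.4%, 26.1% and 79.3% in replicates 1, 2 and 4.

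Of 23 nodule organogenesis and identity genes sought by name, 2 were found in the table. Both had a region of at least 2 lists, but none in all 4 lists. The shares were 23.6% and 8.07% over all coding genes and 31.2% and 16.9% over coding genes with a name. NOOT1, a BTB and ankyrin-repeat co-regulator that keeps nodules from turning into roots, had a region of 3 lists at 42203427 to 42204208 on chromosome 7, with places of 28.5%, 63.4% and 29.4% in replicates 1 to 3. NOOT2, its close relative on chromosome 1, had 2 regions of 2 lists. One was found in replicates 1 and 3 at 36.5% and 43.5%, the other in replicates 1 and 2 at 89.9% and 38.1%. Every one of these places was later than those of NSP1 in the same list.

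Of infection and early nodulin genes 2 of 8 (25.0%) had a region of at least 2 lists, and 1 of 8 (12.5%) one of all 4. This is near the 23.6% and 8.07% of all coding genes and below the 31.2% and 16.9% of those with a name. The region of all 4 lists was that of MtN13, a nodulin of the PR10 protein family, at 19.5%, 34.4%, 39.2% and 83.1%. ENOD20, an early nodulin, had a region of 3 lists at 71.9%, 76.4% and 85.1% in replicates 1, 2 and 4, lying 22 bp outside the gene. The 2 auxin and cytokinin genes, the 2 leghemoglobin and nodule metabolism genes and the 2 autoregulation genes in the table had no region of at least 2 lists.

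Among mycorrhizal genes 2 of 5 had a region of all 4 lists, beside 8.07% of all coding genes and 16.9% of those with a name. STR2, a half-size ABC transporter of the membrane around arbuscules, had places of 18.9%, 8.06%, 11.6% and 3.90% for a region of 1284 bp that overlaps the gene. D27, an isomerase of strigolactone synthesis, stood late in most lists, at 30.0%, 91.2%, 91.6% and 98.8%, so that only replicate 1 placed it in the first 50%.

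CAD1, a cinnamyl alcohol dehydrogenase of lignin synthesis, had the best-placed region of all named genes. It overlapped the gene at 52401907 to 52403018 on chromosome 1, with places of 0.382%, 0.635%, 0.571% and 1.19%. A further region of 3 lists overlapped the same gene at 36.6%, 16.9% and 88.9% in replicates 1, 2 and 4. CAD2, of the same enzyme family, had a region of replicates 2 and 3 only, at 24.0% and 61.2%. In the list of lignin, flavonoid and saponin genes 3 of 7 (42.9%) had a region of at least 2 lists and 1 of 7 (14.3%) a region of all 4. The shares were 23.6% and 8.07% over all coding genes and 31.2% and 16.9% over coding genes with a name. CYP72A67, a cytochrome P450 of saponin synthesis, was the third, with a region of replicates 1 and 4 at 78.7% and 11.7%.

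Outside the lists, CYP81E7, a P450 of isoflavonoid synthesis, had a region early in every list, at 1.85%, 0.694%, 6.03% and 1.58%, and further regions of 3 and of 2 lists. CCS52B, an activator of the anaphase-promoting complex, had 2 neighbouring regions of all 4 lists with mean places of 26.4% and 30.4%. MtVpyl had a region of all 4 lists with a mean place of 55.6%, and FAAH, named for fatty acid amide hydrolase, one with a mean place of 39.0%. A region of 2267 bp with a mean place of 66.7% lay in the windows of both MtCASP2 and NAC969. It overlapped NAC969 and lay 104 bp outside MtCASP2. A further region, of replicates 1 and 2, overlapped MtCASP2 and lay 1504 bp outside NAC969. The windows of PR10-1, TrxS3, GLB1-1, AIH and MAT held regions of 2 or 3 lists only. Only genes with a region are named here. CCS52A, MtCASP4 and several lectin genes are among those with no region of at least 2 lists. Over all 77 coding genes with a name, in a list or not, 31.2% had a region of at least 2 lists and 16.9% one of all 4. The shares over all coding genes were 23.6% and 8.07%.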

How the data were processed

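The 4 LSH1 lists were used as deposited, and the other 3 lists of the series were not used. Per the labels, the authors made a list for each replicate number, without pooling, and each rests on an immunoprecipitation library and its control. The tools named in the submitters' processing notes are MACS2, Bowtie2, ChIPseeker and Picard; for their versions, settings and the build of the genome, the sources used here give nothing. Narrow peaks at a q cutoff of 0.05 are named in the titles of the deposited lists. The deposited columns hold positions and a running number, which was read as a place by a measure that is not named.

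On the 8 chromosomes, peaks sharing 1 bp or more were joined. Each region was located by the midpoint of its earliest peak. Genes came from a RefSeq table of 39590 genes (assembly MtrunA17r5.0-ANR). Gene ends were within 500 bp for 28.1% of regions of at least 2 lists; with all genes shifted by 1000, 5000 or 20000 bp to either side the share was 16.7% to 18.2%, so both coordinate sets were combined. Coordinates of genes are left out, those of regions count from 1, and bases are shares of the 426 Mb up to the last peak or gene of each chromosome. The planned gene-start windows, promoter sequences and motif counts need strand and sequence, which were not used here.

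Members and gene lists were chosen with earlier results of these data known. Named genes are the 25 coding genes with the best mean place of a region in their gene-end window (ribosomal RNA genes and 5000 bp around them excepted). Matched list genes with a region of at least 2 lists are also named. Other genes with a name in the table were added after the table was seen. The functions were tested on simulated data against direct counting. Within-list differences were tested with an exact two-sided sign-flip test over the 4 lists. Alternatives were leaving out each list, the first 5000 peaks, midpoints within 100 bp, 50% overlap of the shorter peak, merging over 200 bp, no regions over 2000 bp, and other gene windows (1000 bp outside the ends, or the gene body plus 3000 bp). Python 3.11.15, numpy 2.4.6, pandas 2.3.3, scipy 1.17.1 and matplotlib 3.10.9 were used.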

Additional observations from a re-analysis of the deposited data

Results flagged for a closer look

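In 76 measures and region places with a value in each of the 4 lists, 6 had a list far from the other 3 by Dixon's criterion, which chance meets in about 1 of 20 groups. The share of peaks in regions of 1 list was 39.3% in replicate 2, against 44.3%, 44.3% and 44.4% in replicates 1, 3 and 4. The region at LOC25499388 had a place of 0.128% in replicate 3 and 0.103% to 0.106% in the others. Its running numbers were 26, 23, 24 and 22 in replicates 1 to 4. Replicate 3 thus stood apart only after division by list length, and its list is the shortest. At LOC11409069 it was 0.378% in replicate 1 and 0.299% to 0.310% in the others. At D27 it was 30.0% in replicate 1 and 91.2% to 98.8% in the others. For the region at NSP1 it was 4.55% in replicate 1 and 1.55% to 2.05% in the others. The inner region of DELLA2 had 35.7% in replicate 2 and 8.17% to 12.5% in the others. Outside the chromosomes the lists held 53 further peaks (14, 16, 11 and 12 in replicates 1 to 4), of which 36 lay on a single unplaced sequence.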

How the results depend on the processing

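Of 127 alternatives for 18 results, 94 were labelled unchanged, 32 moved the value and 1 turned its sign. Unchanged meant within the spread between lists, or within 1.5 times for counts. For the gene-end difference between groups 1 and 5 it meant the same sign. The share of peaks on a chromosome is a mean over lists, so leaving out 1 list cannot move it beyond that spread. Those labels were fixed in advance, and the 94 are no measure of robustness. Of the 55 alternatives that left out no list, 35 were labelled unchanged. The sign turned for the gene-end difference between groups 1 and 5 of a list, -0.0562 points with the whole gene and 3000 bp to each side (exact p = 0.875); without single lists it was 8.89 to 9.80. Mean overlap was 19.3% for midpoints within 100 bp, 34.8% for 50% of the shorter peak, 51.1% for the first 5000 peaks, and 36.0% to 40.6% without single lists. With the first 5000 peaks, regions of at least 2 lists numbered 4441 and of all 4 lists 1662, median width was 1158 bp, spacing of regions of at least 2 lists 40353 bp, and coding genes 963. Chromosomes 3, 5, 7 and 8 then held 14.2%, 11.7%, 12.2% and 12.2% of peaks. Midpoints within 100 bp left 1722 regions of all 4 lists. The gene-end share for regions of 1 list was 47.9% with the first 5000 peaks, 27.2% with a window of 1000 bp and 74.7% with the whole gene; for all 4 lists it was 38.8% and 75.8% with those windows. Coding genes with a region of all 4 lists numbered 3843 with the whole gene.

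Without single lists, regions of at least 2 lists numbered 11623 to 13766 and regions of every remaining list 5055 to 6310. Their width was 788 to 825 bp, spacing of regions of at least 2 lists 10496 to 12379 bp, the gene-end share of regions of every list 51.1% to 52.7%, and coding genes 2736 to 3430. Fewer lists by construction give fewer regions of at least 2 lists and more regions of every list. Of the 25 best-placed genes, 23 were shared after leaving out any list, 25 with merging over 200 bp and 18 with the 1000 bp window. For the other moved values the cause was not tested.

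No paired analysis was possible because each list already joins the immunoprecipitation and the control of a replicate number, and no test runs between groups. Depth per library is unknown, the lists have no peak height, and the running number was read as a place.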
